A study of Mus musculus with 5 samples.

Results

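The brain POU factors and the COUP transcription factors are 2 small families of DNA-binding proteins, taken here as 6 genes out of the 54532 in the deposited table: Pou3f2, Pou3f1, Pou3f3, Pou3f4, Nr2f1 and Nr2f2. They were found by gene name, and all 6 names matched 1 row each. The genes were chosen by their measured levels in these same tumours, which varied from tumour to tumour and cut across treatment, so those levels are a description and get no test. RNA-seq, which counts sequenced RNA fragments per gene, was run on lung tumours of mouse small cell lung cancer that had been flash-frozen after necropsy. All 5 tumours carry the genotype RPP, whose letters the labels do not expand. Treatment was LSN in 3 tumours, named in the series as an inhibitor of the mitotic kinase Aurora A, and vehicle in 2. The sources used here give no dose, duration, age or number of animals. Total counts lay between 17870505 and 19766604 per LSN tumour and between 17439049 and 17804648 per vehicle tumour. The 12 neuroendocrine markers of this cancer, among them Chga and Syp, had reads in every tumour. They summed to 7139, 10119 and 7346 CPM (counts scaled to library size) in LSN replicates 1 to 3. In vehicle replicates 1 and 2 they summed to 8361 and 3411 CPM. Markers of normal lung epithelium were present as well, at 1994, 497 and 1306 CPM with LSN, against 6620 and 8765 CPM with vehicle. Vehicle replicate 2 thus had the lowest neuroendocrine sum and the highest lung sum. The part of normal tissue in the levels below was not tested.

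POU3F proteins bind DNA through a POU-specific domain and a homeodomain, and their genes are mostly active in developing brain. Pou3f2 (Brn2) drives neuronal differentiation and, together with other neural factors, can turn fibroblasts into neurons. Pou3f3 (Brn1) acts beside it in cortex, Pou3f1 (Oct6) in Schwann cells, and Pou3f4 (Brn4) in the inner ear. COUP-TFs are orphan nuclear receptors that mostly repress transcription. Nr2f1 (COUP-TFI) patterns the cortex, while Nr2f2 (COUP-TFII) specifies veins and is widespread in mesenchyme. POU3F2 has been studied in human small cell lung cancer as a regulator of neural genes.

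The 4 POU3F genes each have 1 transcript of 1 exon in GENCODE M21, whereas Nr2f1 and Nr2f2 have 6 annotated transcripts each. The 250 bases before the RefSeq start (build GRCm38.p6) are printed for Pou3f2, for its near-silent paralogue Pou3f3 and for Nr2f2. Which annotated transcripts gave the Nr2f2 reads was not tested. Capitals mark CCAAT, a box found at many vertebrate promoters, on either strand. It was chosen after the sequences were seen.
Pou3f2 (chr4:22488367-22488616, minus strand): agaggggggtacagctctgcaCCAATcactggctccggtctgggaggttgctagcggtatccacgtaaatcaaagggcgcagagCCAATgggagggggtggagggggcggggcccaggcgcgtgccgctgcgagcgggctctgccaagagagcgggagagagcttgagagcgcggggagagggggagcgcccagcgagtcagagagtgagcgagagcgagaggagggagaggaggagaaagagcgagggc
Pou3f3 (chr1:42695518-42695767, plus strand): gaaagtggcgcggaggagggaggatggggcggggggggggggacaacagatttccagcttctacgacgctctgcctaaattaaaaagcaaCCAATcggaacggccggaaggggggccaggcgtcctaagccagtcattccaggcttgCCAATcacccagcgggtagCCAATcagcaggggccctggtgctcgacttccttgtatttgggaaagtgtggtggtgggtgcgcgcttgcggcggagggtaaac
Nr2f2 (chr7:70366747-70366996, minus strand): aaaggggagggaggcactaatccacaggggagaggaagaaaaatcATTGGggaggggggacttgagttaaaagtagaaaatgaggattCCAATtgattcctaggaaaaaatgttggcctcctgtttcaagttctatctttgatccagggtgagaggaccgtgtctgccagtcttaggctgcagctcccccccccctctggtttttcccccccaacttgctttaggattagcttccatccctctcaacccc

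CCAAT occurred 2 times in the Pou3f2 window, 3 times in that of Pou3f3 and 2 times in that of Nr2f2, and 33.8% of all 32851 windows of this length hold it. The Pou3f2 window was GC-rich, at 66.8% with 18 CpG, and that of Pou3f3 was at 60.8% with 15 CpG. The Nr2f2 window was at 50.0% with 1 CpG, against medians of 52.4% and 6 CpG over all windows. On either strand, the octamer ATGCAAAT, which POU factors bind, was in none of the 3 windows and in 1.60% of all. A direct repeat of AGGTCA with a single base between the copies, which COUP-TFs bind, was likewise in none of the 3 and in 0.0335% of all.

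Pou3f2 (ENSMUSG00000095139, chromosome 4, 22482780 to 22488366) was on in 1 tumour of each treatment and close to silent in the others. It had 1074, 1 and 5 reads in LSN replicates 1, 2 and 3, against 18 and 798 reads in vehicle replicates 1 and 2. On the library-scaled level this was 59.2, 0.0535 and 0.264 CPM with LSN, against 0.967 and 44.5 CPM with vehicle. LSN replicate 1 and vehicle replicate 2 were thus high, and the groups overlapped fully. LSN replicate 1 was 1.33 times vehicle replicate 2 (95% exact interval 1.21 to 1.46). Vehicle replicate 2 was in turn 46.0 times vehicle replicate 1 (28.9 to 78.0). LSN replicate 3 and LSN replicate 2 did not differ beyond counting error, at a ratio of 4.94 with an interval of 0.553 to 234. These intervals cover counting error only, since each tumour is 1 library.

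Nr2f1 (ENSMUSG00000069171, chromosome 13, 78188973 to 78199757) had the widest spread of the 6 genes. Its reads numbered 1098, 2 and 1 in LSN replicates 1 to 3, against 104 and 3545 in the vehicle tumours. As levels, these were 60.5, 0.107 and 0.0529 CPM with LSN, against 5.59 and 198 CPM with vehicle. The tumours high for Pou3f2 were also high for Nr2f1, with the order of the top places exchanged, and vehicle replicate 1 stood between them and the low tumours. Vehicle replicate 2 was 3.26 times LSN replicate 1 (95% exact interval 3.05 to 3.50), and LSN replicate 1 was 10.8 times vehicle replicate 1 (8.86 to 13.4). LSN replicates 2 and 3 could not be ordered at these counts.

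Nr2f2 (ENSMUSG00000030551, chromosome 7, 70351944 to 70366735) was present in every tumour. It reached 93.3, 16.1 and 26.9 CPM in LSN replicates 1 to 3, against 38.6 and 111 CPM in vehicle replicates 1 and 2. The high tumours were again LSN replicate 1 and vehicle replicate 2, but over a much narrower range. Every step in the order exceeded counting error, the smallest being 1.19 times (1.12 to 1.27). With 1 library per tumour, this does not say whether the order would repeat.

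Pou3f4 (ENSMUSG00000056854, chromosome X, 110814280 to 110817207) followed another order. It had 175, 213 and 0 reads in the LSN tumours, against 45 and 0 reads in the vehicle tumours, or 9.65, 11.4 and 0 CPM with LSN against 2.42 and 0 CPM with vehicle. A count of 0 allows up to 0.159 CPM in LSN replicate 3 and 0.167 CPM in vehicle replicate 2. Vehicle replicate 2, high for Pou3f2, thus had no Pou3f4 read, while LSN replicate 2, which nearly lacked Pou3f2, had the most. LSN replicates 1 and 2 did not differ beyond counting error (ratio of replicate 2 to 1 of 1.18, interval 0.963 to 1.45).

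Pou3f1 (ENSMUSG00000090125, chromosome 4, 124656807 to 124660655) was low throughout, at 2.21, 0.214 and 0.106 CPM with LSN, against 0.376 and 0.669 CPM with vehicle. LSN replicate 1 was highest, 3.30 times vehicle replicate 2 (1.70 to 6.90). Among the other 4 tumours each step to the next in order lay within counting error. The ends of that order, vehicle replicate 2 with 12 reads and LSN replicate 3 with 2 reads, were not compared. Pou3f3 (ENSMUSG00000045515, chromosome 1, 42695768 to 42703176) had 2, 0 and 0 reads in the LSN tumours, against 0 and 1 in the vehicle tumours. It was not detectable above the floor of 3 reads in any tumour and was the 1 gene of the 6 left out by the filter on low counts.

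**Figure D1:**
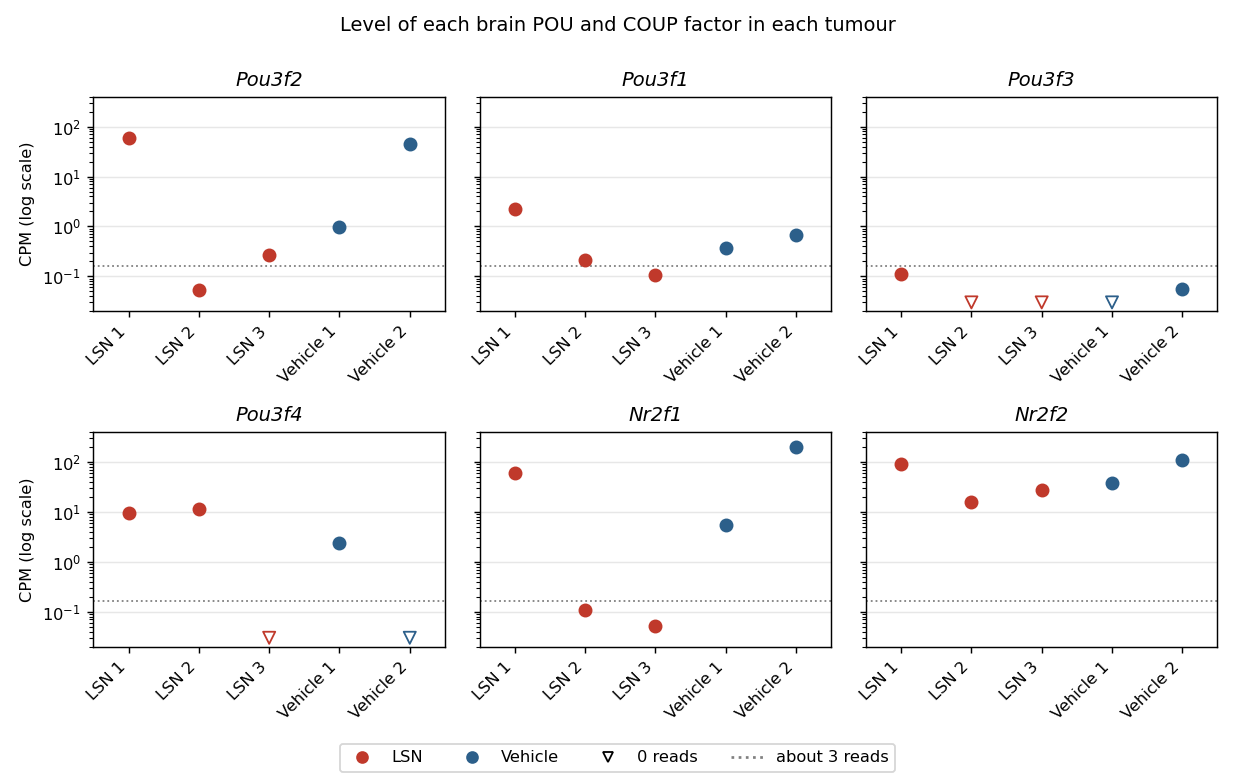
Level of each gene in each tumour, as CPM on a log axis; each point is 1 tumour (red LSN, blue vehicle), open triangles mark 0 reads and the dotted line is about 3 reads. LSN replicate 1 and vehicle replicate 2 are high for Pou3f2, Nr2f1 and Nr2f2, whereas Pou3f4 is highest in LSN replicates 1 and 2 and has 0 reads in LSN replicate 3 and vehicle replicate 2.

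Set against gene length, the tumours differed in which paralogue supplied the family. Length-scaled levels (TPM), computed here from the deposited gene lengths, summed over the POU3F genes to 52.9, 12.5 and 0.235 in the LSN tumours, against 3.81 and 28.2 in the vehicle tumours. In LSN replicate 1 the sum was 38.7 TPM of Pou3f2, 12 TPM of Pou3f4 and 2.09 TPM of Pou3f1. Of the 12.5 TPM in LSN replicate 2, 12.2 TPM was Pou3f4, and of the 28.2 TPM in vehicle replicate 2, 27.6 TPM was Pou3f2. LSN replicate 3 had hardly any POU3F transcript. The 2 COUP-TF genes summed to 83, 5.92 and 9.84 TPM with LSN, against 19.4 and 179 TPM with vehicle. Nr2f1 was above Nr2f2 per length in LSN replicate 1 (43.4 against 39.5 TPM) and in vehicle replicate 2 (135 against 44.7 TPM). In LSN replicates 2 and 3 and in vehicle replicate 1, Nr2f2 was the higher of these genes, at 5.86, 9.81 and 15.6 TPM.

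Ranked by TPM among the 1469 genes to which the deposited table gives a transcription factor family, Nr2f1 was at place 228 in LSN replicate 1 and 43 in vehicle replicate 2. In LSN replicates 2 and 3 and vehicle replicate 1 its places were 1167, 1215 and 892. Pou3f2 was at place 271 in LSN replicate 1 and 376 in vehicle replicate 2. Among the 1120 transcription factor genes that passed the count filter, 1 had a wider range over tumours than Nr2f1 (10.26 on the log2 CPM scale) and 8 had a wider one than Pou3f2 (8.52). The median range of such genes was 1.17. The range was 6.73 for Pou3f4, with 23 genes wider, and 2.78 for Nr2f2, with 202 wider. Where the lowest tumour had few or no reads, the range depends on the prior count of 2 added before taking logs. These places describe the choice of the genes and are no evidence beyond it.

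**Figure D2:**
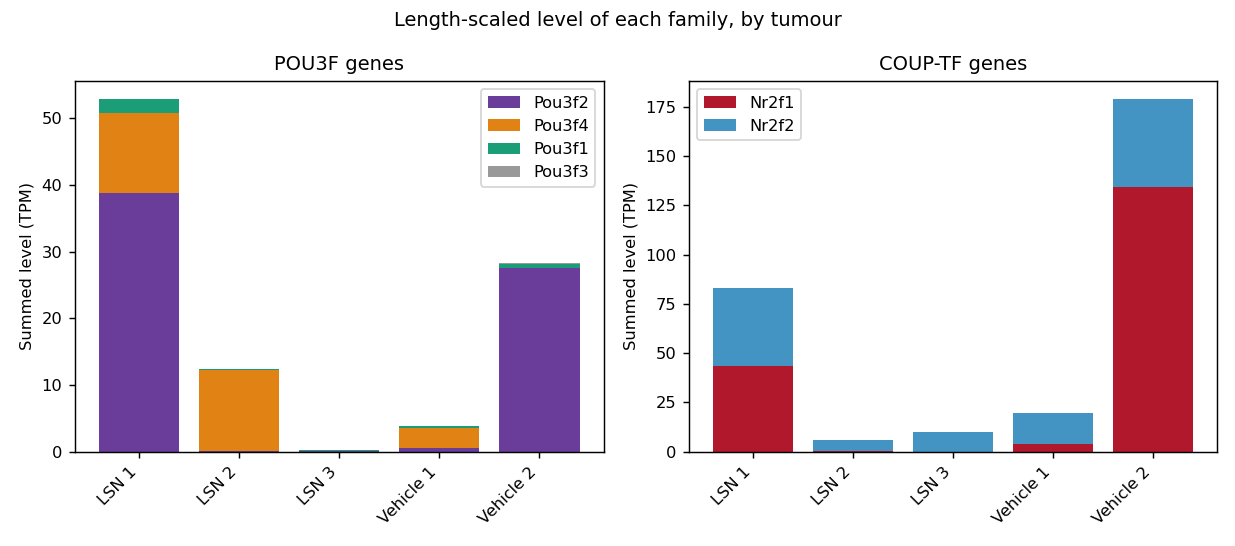
Length-scaled levels (TPM) stacked by paralogue for POU3F genes (left) and COUP-TF genes (right), 1 bar per tumour, LSN tumours left of vehicle tumours. Pou3f2 fills most of the POU3F bar in LSN replicate 1 and vehicle replicate 2, and Pou3f4 fills it in LSN replicate 2.

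In the comparison of LSN with vehicle, which the series makes to follow the response to Aurora A inhibition, the groups overlapped for all 6 genes. Of the 17906 genes tested, 18.9% did not overlap, in either direction. Log2 fold changes of LSN over vehicle, from edgeR and given without a test, were -0.20 ± 2.59 (SE) for Pou3f2, 0.68 ± 1.40 for Pou3f1, 2.53 ± 2.51 for Pou3f4, -2.33 ± 2.59 for Nr2f1 and -0.72 ± 0.86 for Nr2f2. Single tumours set them. Without LSN replicate 1 the values were -7.11 for Pou3f2, -10.21 for Nr2f1 and -1.81 for Nr2f2, and without vehicle replicate 2 they were 4.35, 1.86 and 0.24. Pou3f4 was at 10.02 without vehicle replicate 1, a value that rests on the prior count because the remaining vehicle tumour had 0 reads. By limma-voom, Pou3f2 was at -2.59, Pou3f1 at -0.37 and Nr2f1 at -5.28.

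Of the other 11 POU genes, 4 passed the count filter, led by Pou2f2 (Oct2), a factor of B cells, and the ubiquitous Pou2f1 (Oct1). Pou2f1 was at 69.6, 54.6 and 79.4 CPM with LSN, against 46.5 and 56.8 CPM with vehicle, and Pou2f2 at 95.6, 22.3 and 65.9 CPM with LSN, against 67.1 and 96.4 CPM with vehicle. Pou4f2 (Brn3b), a factor of retinal ganglion cells chosen after its values were seen, was at 0, 4.71 and 0 CPM with LSN, against 0.483 and 0 CPM with vehicle, so that its reads came almost wholly from LSN replicate 2. Of the other 5 NR2 genes, 4 passed. Nr2c2 (TR4), an orphan receptor, was at 84.4, 85.2 and 90.5 CPM with LSN, against 57.7 and 69.6 CPM with vehicle, so that every LSN tumour lay above both vehicle tumours, as for 8.49% of genes. Nr2c1 (TR2) was at 16.9 to 21.0 CPM with LSN and 18.2 to 23.0 CPM with vehicle, and Nr2f6, the remaining COUP-TF relative, at 12.5 to 19.5 CPM with LSN and 21.9 and 19.5 CPM with vehicle. By edgeR, 0 genes of either family passed an adjusted p of 0.05 or an unadjusted p under 0.05, and DESeq2 and limma-voom called 0 as well.

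Among 12 neural factors that act with POU3F, none of the 5 expressed and variable ones (a mean of 1 CPM or more and a log2 range of 2 or more) had a Pearson r of 0.9 or more with Pou3f2 over the 5 tumours. Myt1l, a zinc finger repressor that works with Pou3f2 in neuronal reprogramming, was at 68.7, 23.1 and 22.2 CPM with LSN, against 13.3 and 51.5 CPM with vehicle, its 2 highest tumours being those high for Pou3f2. Insm1, a neuroendocrine zinc finger factor, was high in all tumours, at 618 ± 190 CPM with LSN (SD, n = 3) and 521 ± 19.6 CPM with vehicle (SD, n = 2). Neurod1, a neurogenic factor, was at 0.772, 0.428 and 0 CPM with LSN, against 37.2 and 11.1 CPM with vehicle, and Pax6, a homeobox factor of neural progenitors, at 2.32, 3.59 and 1.32 CPM with LSN, against 4.62 and 17.9 CPM with vehicle.

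Of these 12 genes, 8 were tested. By edgeR, 0 passed an adjusted p of 0.05, as 0% of all 17906 genes did in each direction. At an unadjusted p under 0.05, 2 were lower and 0 higher, with 3.21% and 1.06% of all genes as background. DESeq2 called 1 lower, Neurod1 (adjusted p = 0.000694; 0.668 to 0.9999 over the other alternatives), where it called 0.411% of its 19726 genes lower and 0.071% higher. The list had a median log2 fold change of 0.21, and that of all genes was 0.03.

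SOX factors, which bind DNA next to POU factors at neural enhancers, ranged from near 0 (Sox3, Sox10 and Sox15, under 1 CPM in every tumour) to some of the more abundant factors. Sox11 was at 403, 96.0 and 509 CPM with LSN, against 294 and 479 CPM with vehicle, Sox1 at 264 to 572 CPM with LSN and 235 and 360 CPM with vehicle, and Sox2 at 62.9, 33.4 and 201 CPM with LSN, against 108 and 271 CPM with vehicle. These levels overlapped between the groups, and Sox2 and Sox11 were lowest in LSN replicate 2. Of the 16 SOX genes 13 were tested, with 0 called by edgeR, DESeq2 or limma-voom. At an unadjusted p under 0.05 by edgeR, 2 were lower and 0 higher, where 3.21% of all genes were lower and 1.06% higher. Sox18, a factor of endothelial cells, was at 6.37 ± 1.48 CPM with LSN (SD, n = 3) and 22.9 ± 17.9 CPM with vehicle (SD, n = 2), and Sox9, a factor of lung progenitors and cartilage, at 0.651 ± 0.391 CPM with LSN and 2.33 ± 0.641 CPM with vehicle. Normal lung epithelium markers lay in the same direction, with 12 of 12 below 0 and a median log2 fold change of -2.15. Of all 17906 genes tested, 53.2% were above 0. The part of lung epithelium was not tested.

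Among 24 genes linked to POU3F in neural, glial and pigment cells, some genes of neurite growth were highest in the tumours high for Pou3f2, Nr2f1 and Nr2f2 and others were not. Tubb3, the neuronal beta-tubulin, was at 162, 31 and 38.1 CPM with LSN, against 77.6 and 187 CPM with vehicle. Gap43, a growth cone protein, was at 115, 6.26 and 1.11 CPM with LSN, against 15.9 and 157 CPM with vehicle. Dcx, the microtubule protein doublecortin of migrating neurons, was at 513, 15.4 and 2.01 CPM with LSN, against 84.6 and 277 CPM with vehicle. In each, LSN replicate 1 and vehicle replicate 2 were highest, though the order of the tumours differed between them. Stmn2, a stathmin of growing neurites, was at 72.0, 2.09 and 39.1 CPM with LSN, against 38.6 and 5.29 CPM with vehicle, and so was low in vehicle replicate 2. These 4 were picked for their values. Of the 14 expressed and variable genes of the list, r was at least 0.9 with Pou3f2 for 2 (Gap43 and Tubb3) and with Nr2f1 for 3. Over all 3844 such genes that share was 9.96% for Pou3f2 and 9.68% for Nr2f1.

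The other genes named from that list had r below 0.9 with Pou3f2. Crh, the corticotropin-releasing hormone and a known target of Brn2 in the hypothalamus, was at 17.9 CPM in LSN replicate 1, at 0.321 and 0.0529 CPM in LSN replicates 2 and 3, and at 0.483 and 0.0557 CPM in the vehicle tumours. It was chosen after its values were seen. Nes, the progenitor filament nestin, was at 14.4, 12.3 and 9.10 CPM with LSN, against 35.7 and 59.8 CPM with vehicle, at a log2 fold change of -2.0 ± 0.38 (SE). Its groups did not overlap, as for 10.4% of genes in that direction, and DESeq2 called it lower (adjusted p = 0.0105), whereas its adjusted p was 0.9996 by edgeR and 0.668 to 0.9999 over the other alternatives. Foxp2, a forkhead factor of brain and lung epithelium, was at 3.25, 3.69 and 0.317 CPM with LSN, against 9.72 and 77.4 CPM with vehicle. Fabp7, a radial glia fatty acid binding protein, was at 0.268 to 3.09 CPM with LSN and 0.644 and 0.947 CPM with vehicle. Ncam1, a neural adhesion molecule, averaged 308 ± 95.3 CPM with LSN (SD, n = 3) and 310 ± 86.6 CPM with vehicle (SD, n = 2), and its 2 highest tumours were those high for Pou3f2, at 378 CPM in LSN replicate 1 and 372 CPM in vehicle replicate 2. Mbp, a myelin protein, averaged 196 ± 83.7 CPM with LSN and 161 ± 34.8 CPM with vehicle. Of the 20 genes tested, edgeR called 0, with 3 lower and 0 higher at an unadjusted p under 0.05 (3.21% and 1.06% of all genes). By limma-voom 0 were called and by DESeq2 1 was lower, where DESeq2 called 0.411% of all genes lower. Their median log2 fold change was -0.02.

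**Figure D3:**
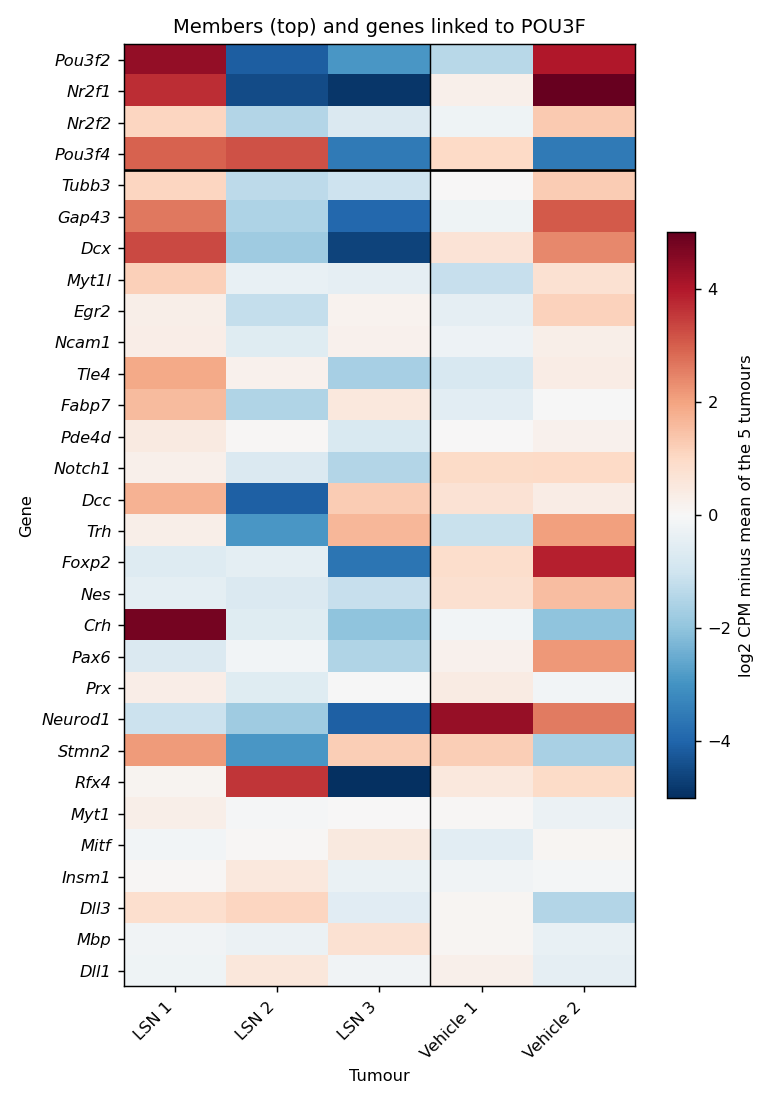
Log2 CPM minus the mean of the 5 tumours for 4 members (above the line) and for genes of the neural factor and POU3F-linked lists with a mean of at least 1 CPM (below, from the most to the least like Pou3f2); columns are tumours, LSN left of vehicle, and colours are capped at 5 in either direction. Tubb3, Gap43 and Dcx share the high tumours of Pou3f2, LSN replicate 1 and vehicle replicate 2.

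Of 16 COUP-TF partner genes, 4 were expressed and variable. The corepressor gene Ncor1 averaged 440 ± 44.1 CPM with LSN (SD, n = 3) and 256 ± 2.18 CPM with vehicle (SD, n = 2). Its groups did not overlap, as for 8.49% of genes in that direction. Its log2 fold change was 0.78 ± 0.21 (SE). The adjusted p was 0.358 by DESeq2 and 0.9996 by edgeR, with 0.725 to 0.9999 over the other alternatives. Bcl11a, whose product CTIP1 was found as a COUP-TF binding protein, was at 3.03, 2.46 and 1.16 CPM with LSN, against 11.4 and 14.5 CPM with vehicle, and DESeq2 alone called it (adjusted p = 0.009; 0.668 to 0.9999 over the other alternatives). Bcl11b (CTIP2) was at 24.3, 3.53 and 102 CPM with LSN, against 16.3 and 10.9 CPM with vehicle. Zfpm2 (FOG2), a cofactor of Nr2f2 in mesenchyme, was at 0.937, 0.910 and 0.687 CPM with LSN, against 4.94 and 2.34 CPM with vehicle. Of the 16 genes 15 were tested, edgeR and limma-voom called 0, and 1 higher and 2 lower reached an unadjusted p under 0.05 by edgeR, as 1.06% and 3.21% of all genes did. DESeq2 called 1 lower, against 0.411% of all genes. The median log2 fold change was -0.09.

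Among 29 genes linked to COUP-TF, some had the high tumours of Nr2f2. Lhx1, a LIM homeobox factor, was at 56.0, 0.107 and 0.793 CPM with LSN, against 9.24 and 45.8 CPM with vehicle, and Angpt1, the ligand of the endothelial receptor Tie2, at 7.33, 1.23 and 2.01 CPM with LSN, against 3.49 and 8.69 CPM with vehicle. Of the 13 genes of this list that were expressed and variable, r with Nr2f2 was at least 0.9 for 3, namely Angpt1, Lhx1 and Dlx1, where 10.5% of all such genes reached it. Ephb4, a receptor of venous endothelium, was at 7.39, 6.75 and 4.44 CPM with LSN, against 19.6 and 22.1 CPM with vehicle (log2 fold change -1.75 ± 0.42 (SE); DESeq2, adjusted p = 0.0212; 0.668 to 0.9999 over the other alternatives). Ccnd1, cyclin D1, was at 15.8, 7.55 and 7.03 CPM with LSN, against 27.6 and 53.2 CPM with vehicle. The neuropilin genes overlapped between groups, Nrp1 at 30.6 to 87.7 CPM with LSN and 26.3 and 58.5 CPM with vehicle, and Nrp2 at 24.0 to 86.8 CPM with LSN and 23.9 and 83.8 CPM with vehicle. Prox1 and E2f1 were level, at 300 to 455 CPM and 95.7 to 166 CPM with LSN, and at 310 and 460 CPM and 110 and 124 CPM with vehicle. Of the 29 genes 23 were tested, edgeR and limma-voom called 0, and 7 were lower and 0 higher at an unadjusted p under 0.05 by edgeR, as were 3.21% and 1.06% of all genes. DESeq2 called 1 lower, against 0.411% of all genes. The median log2 fold change was -0.61. Endothelial markers lay in the same direction, 11 of 12 with a log2 fold change below 0 and a median of -1.56. Of all genes tested, 53.2% were above 0. The part of endothelium was not tested.

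Nr2f2 is expressed by veins, lymphatics and fibroblasts, and in bulk tissue fewer cells of a type and less RNA per cell cannot be told apart. The 12 endothelial markers all had reads in every tumour and summed to 207, 670 and 527 CPM with LSN, against 717 and 570 CPM with vehicle. Vwf made up most of that sum in LSN replicates 2 and 3 and vehicle replicate 1. It was only 52.3 CPM in LSN replicate 1 and 49.4 CPM in vehicle replicate 2, the tumours high for Nr2f2. With Vwf, LSN replicate 1 had the lowest sum of all tumours and vehicle replicate 1 the highest. Without Vwf, a choice made after the values were seen, the other 11 summed to 155, 131 and 103 CPM with LSN. With vehicle they summed to 279 and 521 CPM. LSN replicate 1 was then the highest of the LSN tumours and vehicle replicate 2 the highest of all. That order of the sums thus depended on leaving out Vwf. Averaged as log2 CPM, endothelial markers were at 3.77, 3.49 and 3.27 with LSN, against 4.78 and 5.12 with vehicle. The 11 venous and lymphatic markers averaged 3.93, 3.92 and 3.31 log2 CPM with LSN, against 4.17 and 4.92 with vehicle. Ackr1, a receptor of venules, was at 3.47, 0.107 and 0.370 CPM with LSN, against 0.322 and 2.84 CPM with vehicle. It was the 1 gene among 9 expressed and variable ones of that list with r of at least 0.9 with Nr2f2. Of all such genes, 10.5% reached that r. Vwf, also of that list, was lowest in the tumours where Ackr1 was highest. The 13 fibroblast and smooth muscle markers summed to 1331, 854 and 596 CPM with LSN, against 911 and 1772 CPM with vehicle. Without Rgs5 and Pdgfra, again chosen after the values were seen, they came to 687, 764 and 445 CPM with LSN, against 763 and 1503 CPM with vehicle. As log2 CPM the 13 averaged 4.63, 4.12 and 4.02 with LSN, against 4.71 and 5.30 with vehicle, so that vehicle replicate 1 was above LSN replicate 1. Pdgfra, a receptor of fibroblasts, was at 164, 4.76 and 5.92 CPM with LSN, against 10.2 and 58.9 CPM with vehicle. It was the 1 gene of 6 expressed and variable ones with r of at least 0.9 with Nr2f2, where 10.5% of all such genes reached it. Dcn, the matrix protein decorin, ran otherwise, at 24.8, 43.5 and 30.6 CPM with LSN, against 56.6 and 23.4 CPM with vehicle. The part of these cells in the Nr2f2 levels was not tested. Schwann and glial markers summed to 177 to 366 CPM with LSN and 171 to 226 CPM with vehicle. Mbp made up 140 to 292 CPM with LSN and 136 to 186 CPM with vehicle, while Sox10, the defining Schwann factor, had at most 0.214 CPM in any tumour. Neuronal markers averaged 5.17, 3.47 and 2.85 log2 CPM with LSN, against 4.71 and 4.56 with vehicle. Of 9 expressed and variable ones, 2 (Slc17a6 and Tubb3) had r of at least 0.9 with Nr2f2, where 10.5% of all such genes reached it. Slc17a6, a glutamate transporter of neurons, was at 23.8, 0.0535 and 0 CPM with LSN, against 7.63 and 52.7 CPM with vehicle. Gad1, an enzyme of GABA synthesis, was at 14.8, 153 and 20.3 CPM with LSN, against 142 and 6.08 CPM with vehicle, and was low in the tumours where Slc17a6 was highest. Neuroendocrine tumour cells share many neuronal genes, so these markers do not separate neurons from tumour.

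**Figure D4:**
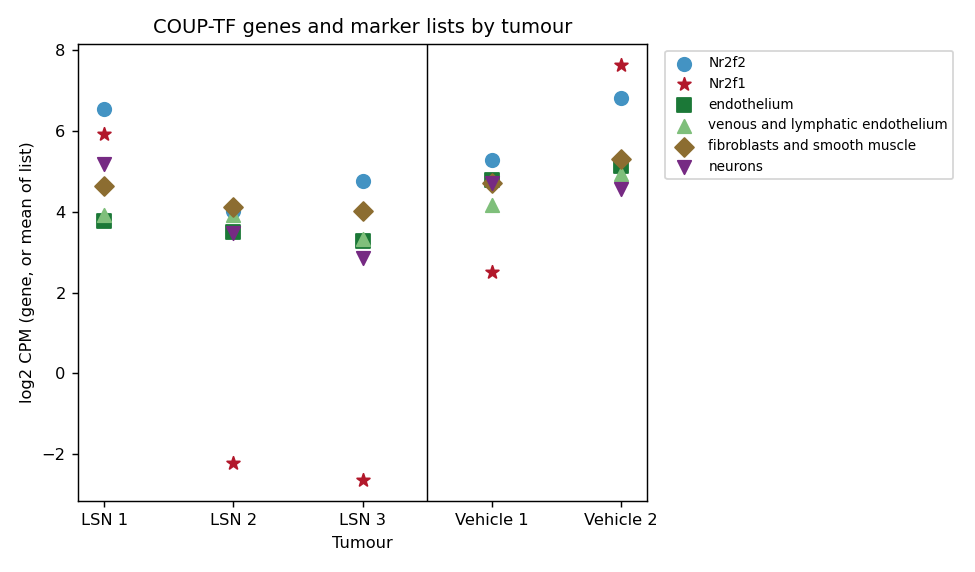
Log2 CPM of Nr2f2 and Nr2f1 and mean log2 CPM of 4 marker lists, 1 column per tumour, LSN left of the line and vehicle right of it. Nr2f1 runs from -2.63 to 7.63 and the mean of the 12 endothelial markers from 3.27 to 5.12; a mean over a list varies less than a single gene, so these spans are not comparable.

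To see whether the spread extended along the chromosome, neighbouring genes were compared. Within 500 kb of Pou3f2, 2 genes had a mean of at least 1 CPM. Faxc was at 53.3, 43.0 and 36.7 CPM with LSN, against 24.8 and 42.2 CPM with vehicle, and Fbxl4 at 19.8, 28.9 and 20.6 CPM with LSN, against 23.6 and 11.7 CPM with vehicle, with log2 ranges of 1.10 and 1.30. Below that level, the lincRNA Gm30731, on the opposite strand with its start 2.18 kb upstream of that of Pou3f2, had 16, 0 and 0 reads with LSN, against 0 and 15 with vehicle, all in the tumours high for Pou3f2. It was chosen after its values were seen. Beside Nr2f1, Fam172a was at 65.7, 65.0 and 61.3 CPM with LSN, against 62.1 and 73.5 CPM with vehicle. Around Pou3f1 the 17 such genes had ranges of 0.56 (Utp11) to 2.91 (Dnali1). Around Pou3f3 4 of the 5 had ranges of 0.45 (AI597479) to 1.03 (Fhl2), and the other was Gpr45, a receptor gene at 8.88, 0 and 0.0529 CPM with LSN, against 1.24 and 5.35 CPM with vehicle. None reached that level within 500 kb of Pou3f4 or of Nr2f2. Gm2164 and Gm20646, which overlap Pou3f1 and Pou3f3, had 0 reads in every tumour.

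A830082K12Rik (chromosome 13, 78198017 to 78279391), annotated antisense to Nr2f1 and starting 1.74 kb downstream of the Nr2f1 start, was at 15.5, 0.107 and 0.0529 CPM with LSN, against 2.26 and 39.3 CPM with vehicle. Vehicle replicate 2, LSN replicate 1 and vehicle replicate 1 thus came in the order of Nr2f1 itself. LSN replicates 2 and 3, with 2 and 1 reads, could not be ordered at these counts. The libraries do not keep strand, and the annotated exons of these genes share 123 bases, or 1.49% of those of A830082K12Rik. How reads were divided between these genes was not tested. B130024G19Rik, opposite Nr2f2, was at 1.16, 0.321 and 0.0529 CPM with LSN, against 0.644 and 1.34 CPM with vehicle, and 643 of its exonic bases (6.77%) are shared with Nr2f2. Reads in shared bases cannot be told apart.

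**Figure D5:**
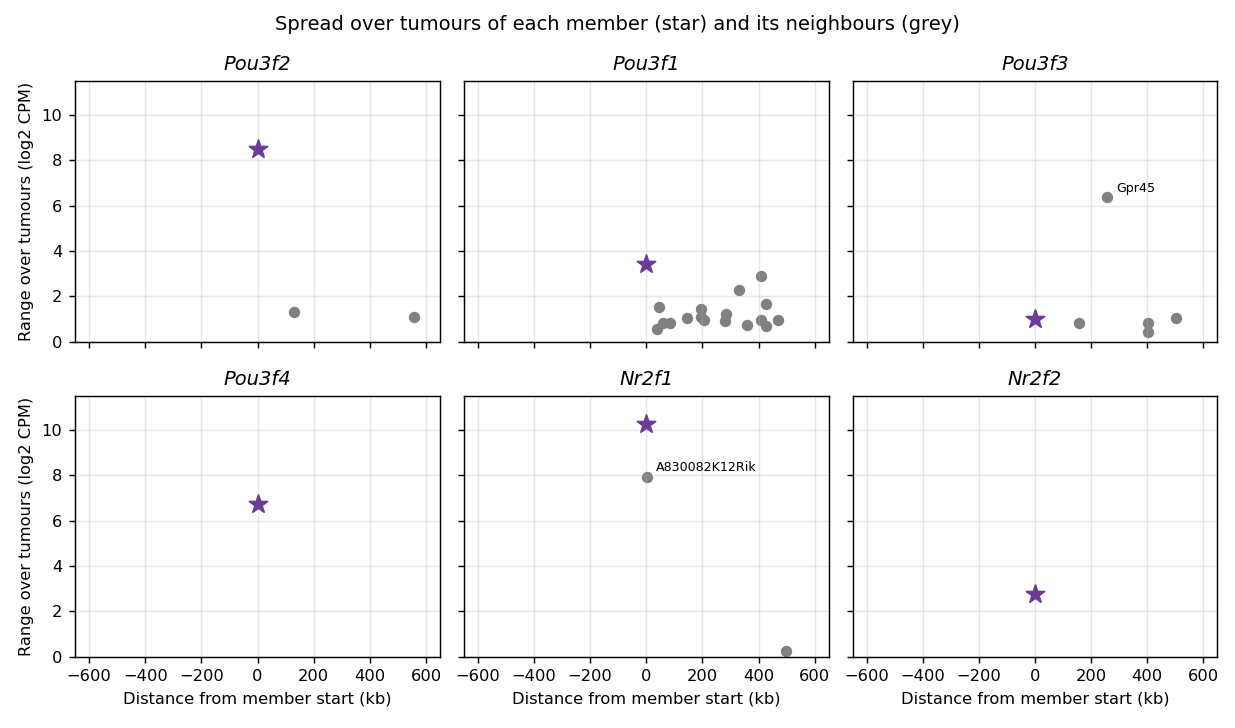
Range over the 5 tumours (highest minus lowest log2 CPM) of each member (star, at distance 0) and of neighbouring genes with a mean of at least 1 CPM (grey), against the distance of their starts in kb, positive downstream. The neighbours lie at 2.91 or less, apart from Gpr45 beside Pou3f3 at 6.37 and A830082K12Rik beside Nr2f1 at 7.94.

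The genes most like each member over the 5 tumours were taken as those with the highest Pearson r of log2 CPM among the 3844 expressed and variable genes. All points share the same 5 libraries. For Pou3f2 they were Lrrc4, a synaptic adhesion protein, Mpped2, a phosphoesterase, Stmn4, a stathmin of neurons, Nkain3, a partner of the sodium pump, and Pcdhb3, a protocadherin, with r from 0.997 to 0.999. Stmn4 was at 101, 0.214 and 0.635 CPM with LSN, against 2.42 and 116 CPM with vehicle. Nkain3 lies on chromosome 4 as well, 1.70 Mb from Pou3f2. The share of the 3844 genes on a member's chromosome is not given here, so such positions are descriptions only. The genes of most opposite order included Upb1, an enzyme of pyrimidine breakdown, Lrig1, a brake on growth factor receptors, Sh3bgrl2 and Ovol1, an epithelial zinc finger factor, with r of -0.997 to -0.996. Ovol1 was at 0.331, 15.2 and 12.5 CPM with LSN, against 6.28 and 0.334 CPM with vehicle.

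For Nr2f1 the 5 closest were the potassium channel gene Kcnc2, the protease Adamts10, the cilium gene Evc2, Arhgap42 and Fam181b (r of 0.997 or more), and for Nr2f2 they were Kcns2, Angpt1, Strc, Kifc3 and Fibcd1 (r from 0.995 to 0.998). Kcnc2 was at 13.7, 0.268 and 0.212 CPM with LSN, against 2.74 and 32.7 CPM with vehicle. Pou3f4 had other companions, namely Rab39, Clca3a2, Faim2, Nptx1 and Dach2 (r from 0.975 to 0.996), and 51 genes with r of at least 0.9, against 383 for Pou3f2. Dach2, a factor of the dachshund family, had 165, 365 and 0 reads with LSN, against 189 and 0 with vehicle, and lies 2.48 Mb from Pou3f4 on chromosome X. Its tumours without reads were those without Pou3f4 reads. Such short lists depend on each tumour: with 1 tumour left out, between 0 and 3 of the 5 genes stayed on each list.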

How the data were processed

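RNA was purified from frozen tumours on columns with DNase, and the paired-end library kit was not stranded, per the labels' protocols. The authors aligned reads to mm10 with STAR and tested genes with DESeq2, per the same protocols; the counter and gene annotation were not given in the sources used here. Whole-number read counts per gene, unnormalized, were deposited by the authors with gene lengths and positions.

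The test of LSN against vehicle used edgeR 4.0.16 in R 4.3.3 (quasi-likelihood F test, robust, TMM scaling, filterByExpr with a minimum count of 10 and total of 15), Benjamini-Hochberg adjusted over 17906 genes. CPM are TMM-scaled, and log2 CPM has a prior count of 2. TPM use all 54532 genes. Alternatives were DESeq2 1.42.0 (genes with any count), limma-voom (limma 3.58.1), RLE scaling, total counts, other count filters, another prior count and leaving out each tumour. The fit was run on simulated counts with the same spread setting for all genes. That run does not show how the fit performs at the spread of these tumours. A count of 3, the floor, was 0.159 to 0.165 CPM in LSN tumours and 0.161 to 0.167 CPM in vehicle tumours. Ratios between tumours carry exact binomial (Clopper-Pearson) intervals on their counts. Tumours were sorted by level before neighbours in the order were compared, so no such ratio can lie below 1. Intervals and floors cover counting error only.

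The members and lists were chosen with earlier results of these data known. Named genes were the members, in each functional list the 2 of highest mean CPM and the 2 of smallest edgeR p, a set of 12 more, the 5 genes most like each member whose mean reached 1 CPM, the 5 least like Pou3f2, and neighbours within 500 kb. Nothing in the labels says that tumours came from separate animals, so p-values measure only the spread between these samples. Promoter sequences are from RefSeq (GRCm38.p6). Pou3f1 has no entry in that table. Those of Nr2f1 and Pou3f4 reach into the deposited gene and are not printed. Some genes that the rule names are not reported here.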

Additional observations from a re-analysis of the deposited data

How the results depend on the processing

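By DESeq2, 95 genes were called, against 0 by edgeR and under the other alternatives, limma-voom included (190 genes higher and 574 lower by edgeR at an unadjusted p under 0.05). The log2 range over tumours stayed within 1 SD of its value under the alternatives run for Pou3f2, Pou3f4, Nr2f1 and Nr2f2. That is a wide limit for genes so spread out. With a prior count of 0.5 the range was 9.52 for Pou3f2, against 8.52 with a prior count of 2. It was 8.72 against 6.73 for Pou3f4, 11.27 against 10.26 for Nr2f1 and 2.79 against 2.78 for Nr2f2. The exceptions were Pou3f3, at 2.34 with a prior count of 0.5 against 1.01 with a prior count of 2, and Pou3f1, at 1.86 to 3.43 with 1 tumour left out. With 1 tumour left out the range was 7.31 to 8.52 for Pou3f2, 6.49 to 6.73 for Pou3f4, 8.56 to 10.26 for Nr2f1, 2.04 to 2.78 for Nr2f2 and 0.60 to 1.01 for Pou3f3. With a prior count of 0.5, 3 of the 5 genes most like Pou3f2 stayed on its list. Without TMM, 3 of the 5 for Nr2f2 did. With a mean of at least 5 CPM, 3 stayed for Nr2f1 and 2 for Nr2f2, because the others had means below that cut. The causes of the other changes were not tested. Without LSN replicate 1, Pou3f1 did not pass the count filter. Leaving out a vehicle tumour leaves 1, which is then assumed to vary like the LSN tumours. No paired analysis was possible because the labels give no number shared between LSN and vehicle tumours. Differences among tumours with under about 3 reads of a gene are not detectable at this depth.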

Other observations

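Several other transcription factor genes were highest in LSN replicate 1 and vehicle replicate 2, as Pou3f2 was, and they were chosen after their values were seen. Mycn, a MYC family member, was at 51.8, 7.76 and 12.6 CPM with LSN, against 15.7 and 39.7 CPM with vehicle (r = 0.991 with Pou3f2 over 5 tumours). Gata2, a zinc finger factor of blood and brain, was at 40.3, 1.66 and 2.12 CPM with LSN, against 9.61 and 37.9 CPM with vehicle. Rarb, a retinoic acid receptor, was at 7.66, 0.214 and 0.635 CPM with LSN, against 1.45 and 5.35 CPM with vehicle. Scrt1, a neuronal repressor, was at 40.7, 2.14 and 1.16 CPM with LSN, against 8.22 and 46.8 CPM with vehicle. Pax1, a paired box factor of the sclerotome, was at 256, 0.161 and 0.0529 CPM with LSN, against 1.61 and 21.6 CPM with vehicle. In all, 33 of the 274 expressed and variable transcription factor genes had r of at least 0.9 with Pou3f2, against 383 of 3844 genes of any kind.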
